A study of Mus musculus with 8 samples.

Results

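The acyltransferases of triglyceride synthesis are the enzymes that attach fatty acids, one after another, to a glycerol backbone. The 9 genes described here were chosen by symbol, as the GPAT enzymes Gpam, Gpat3 and Gpat4, the AGPAT enzymes Agpat2 and Agpat3, the DGAT enzymes Dgat1 and Dgat2 and the MGAT enzymes Mogat1 and Mogat2. They are 9 of the 38283 genes in the deposited expression table, and 8 of them, all but Mogat2, passed the filter on low values and were tested among 11634 genes. RNA was sequenced from livers of mice with the strain label C57BL/6, in 4 groups of 2 libraries each. In all 4 groups exons 4 and 5 of Rora, the gene of the nuclear receptor RORα, were flanked by loxP sites (RORα f/f). The RORα LKO groups (Alb-cre;RORa f/f) had in addition a Cre recombinase driven by the albumin promoter, which the study used to delete the gene selectively in liver. Which liver cells kept the gene cannot be read from these libraries. Mice of each genotype were fed a control diet (CD) or a high-fat diet (HFD, 60% of energy from fat) for 10 weeks from 8 weeks of age, and a library held RNA from the pooled livers of 2 mice, which makes 4 mice per group.

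In the glycerol 3-phosphate pathway, a GPAT enzyme adds the first fatty acid to glycerol 3-phosphate, an AGPAT enzyme adds the next to give phosphatidate, a lipin phosphatase removes the phosphate to give diacylglycerol, and a DGAT enzyme adds the last fatty acid to give triglyceride. MGAT enzymes reach diacylglycerol by another route, from monoacylglycerol, which is the main route in the absorbing cells of the small intestine and a minor one in normal mouse liver. In the liver the triglyceride made in this way is stored in lipid droplets or exported in very low-density lipoprotein.

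Expression was given as FPKM (sequenced fragments divided by transcript length and library size), so that levels of different genes can be set side by side. The libraries had 10587 to 10706 genes above 1 FPKM, and their 10 highest genes held 29.7% to 43.7% of the summed FPKM. In library 2 of the f/f CD group a single gene, ENSMUSG00000093077, held 18.7% of the sum. The hepatocyte genes Apoa1, Ttr, Tat, Cps1 and Asgr1 were high in every library, whereas Alb was listed at 0 in 4 of the 8 and at 29902 to 30888 FPKM in the other 4. An exact 0 in such a table can be a failed estimate, so a gene at 0 is described below only as listed at 0. Rora FPKM was 8.85 and 8.59 in the f/f CD libraries, 7.96 and 8.18 in the LKO CD libraries, 7.56 and 7.86 in the f/f HFD libraries and 7.30 and 8.02 in the LKO HFD libraries. The ranges of the genotypes overlapped on HFD and were close on CD, and a value over the whole gene need not follow the loss of 2 exons, so the genotype of each library rests on its label and the directions below are those of the libraries labelled LKO and f/f. In whole liver, fewer cells of a type and less RNA per cell cannot be told apart.

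Positions are those of GENCODE M21 on GRCm38. Dgat2 was the most abundant member and Mogat2 the least. Averaged over the 8 libraries, Dgat2 stood at 223 FPKM, followed by Agpat3 at 94.3, Agpat2 at 85.9, Gpat4 at 46.5, Gpam at 29.9, Dgat1 at 12.9, Gpat3 at 5.44, Mogat1 at 1.11 and Mogat2 at 0.163. Each gene was above the next one in this order in all 8 libraries, except for Agpat3 and Agpat2. Agpat3 was above Agpat2 in 6 of 8 libraries, and in the LKO CD group the order was reversed, with both Agpat2 values above both Agpat3 values. The 9 genes together summed to between 469 and 525 FPKM per library.

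**Figure D1:**
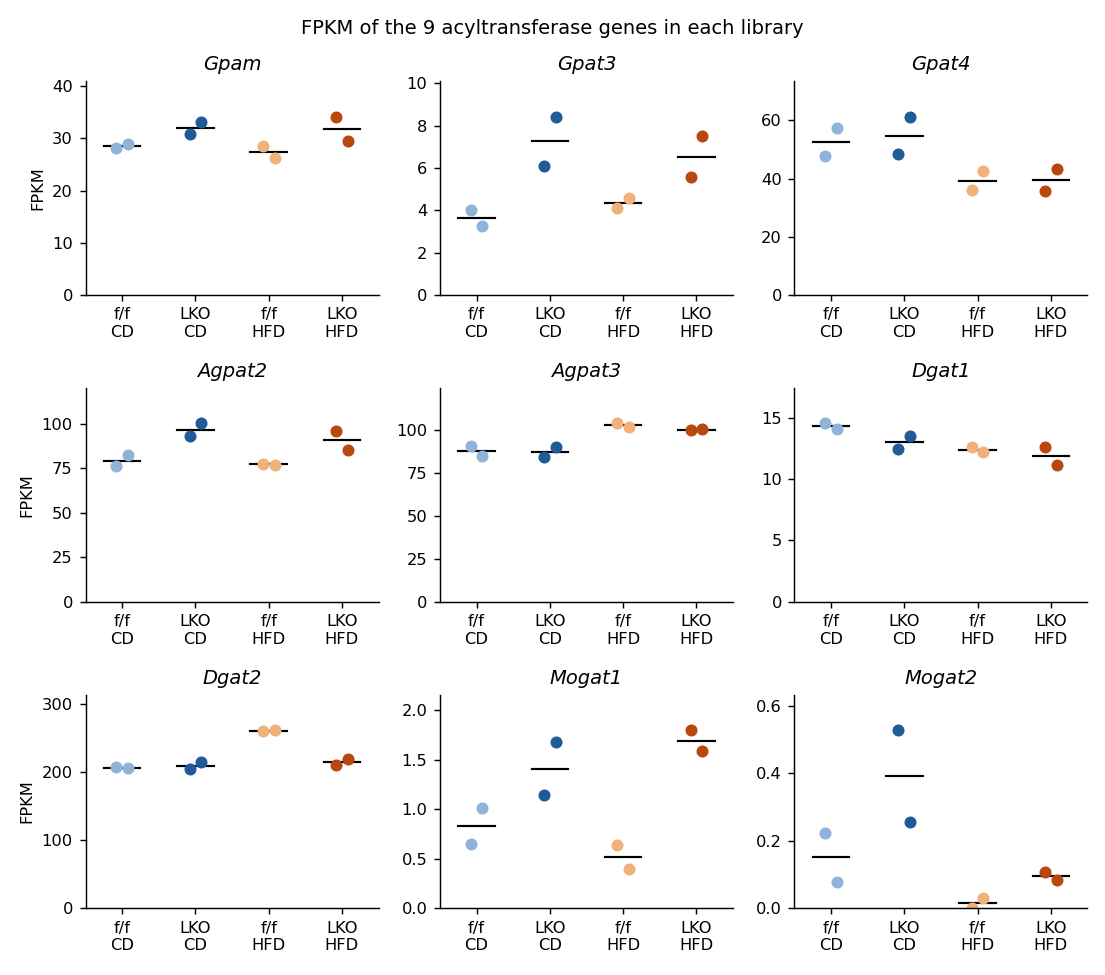
FPKM of each of the 9 genes in the 8 libraries, as deposited, on linear axes that start at 0. Points are libraries, short black lines are group means, and columns are f/f and LKO libraries on CD and on HFD. All 4 LKO libraries lie above all 4 f/f libraries for Gpam, Gpat3, Agpat2 and Mogat1, and Dgat2 is highest in the 2 f/f HFD libraries. The share of all tested genes that split by genotype in this way was not computed.

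Members of a step were unequal to different degrees. The AGPAT step was the most even, with Agpat2 at 42.8% to 52.6% of the summed AGPAT FPKM and Agpat3 at 47.4% to 57.2%. Dgat2 gave 93.4% to 95.5% of the summed DGAT FPKM, and the ratio of Dgat2 to Dgat1 was 14.2 and 14.6 in the f/f CD libraries, 16.4 and 15.8 in the LKO CD libraries, 20.6 and 21.4 in the f/f HFD libraries and 16.7 and 19.7 in the LKO HFD libraries. The f/f HFD libraries had the highest ratios and the f/f CD libraries the lowest, with no overlap between them. Among the 3 GPAT genes, Gpat4 gave 47.3% to 64.1% of the summed FPKM, Gpam 32.2% to 45.3% and Gpat3 3.62% to 9.32%. The share of Gpat3 was 5.03% and 3.62% in the f/f CD libraries, 7.14% and 8.19% in the LKO CD libraries, 5.98% and 6.25% in the f/f HFD libraries and 7.39% and 9.32% in the LKO HFD libraries. All 4 LKO libraries were above all 4 f/f libraries in this share. The depth in reads was not used, and the values carry no counting error of their own, so the spread between the 2 libraries of a group is the only error available.

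**Figure D2:**
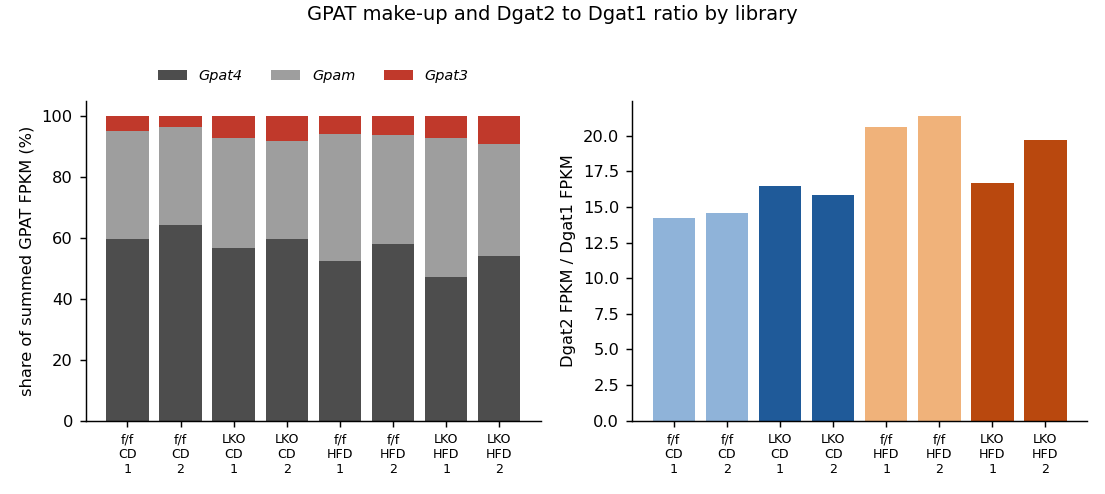
Left, the share of each GPAT gene in the summed GPAT FPKM of each library, as stacked bars in percent. Right, the ratio of Dgat2 to Dgat1 FPKM in each library, from 14.2 to 21.4. Labels under the bars give genotype, diet and library number, and the red Gpat3 segment is taller in each LKO library than in any f/f library.

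The first comparison asked how the acyltransferases differed between LKO and f/f liver on each diet. On HFD, Mogat1, Gpat3, Agpat2 and Gpam were higher and Dgat2 was lower in the LKO libraries, and on CD Gpat3, Agpat2, Gpam and Mogat1 were again higher, but none of these differences passed an adjusted p of 0.05. A log2 fold change here is the difference between group means of quantile-normalized log2(FPKM + 1), tested with limma in 1 fit of all 8 libraries, with Benjamini-Hochberg adjustment over 11634 genes. On this scale the change of a gene near 1 FPKM is understated. On HFD 0 of 8 members had an adjusted p under 0.05, where 0.043% of all tested genes did, and 5 of 8 had an unadjusted p under 0.05, where 9.58% of all tested genes did. On CD 0 of 8 had an adjusted p under 0.05, where 0.0172% of all did, and 2 of 8 had an unadjusted p under 0.05, where 12.3% of all did. The 5 on HFD fell when any 1 of the 8 libraries was left out, and the 2 on CD changed under some of these omissions. The libraries of the genotypes did not overlap in FPKM for 6 of 8 tested members on HFD, beside 42.1% of all tested genes, and for 5 of 8 on CD, beside 43.3%. The median log2 fold change of the 8 members was 0.13 on HFD and 0.12 on CD, where that of all tested genes was -0.00067 and -0.00085.

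Mogat1, the MGAT enzyme known to be raised in fatty liver of mice, had the greatest log2 fold change of the 8 tested members on HFD, on the log2(FPKM + 1) scale. Mogat1 (ENSMUSG00000012187, chr1:78510991-78538173, plus strand) had FPKM values of 0.646 and 1.02 in the f/f CD libraries, 1.15 and 1.68 in the LKO CD libraries, 0.638 and 0.397 in the f/f HFD libraries and 1.80 and 1.59 in the LKO HFD libraries. On HFD both LKO libraries were above both f/f libraries, with group means of 1.69 against 0.517 FPKM, a 3.28-fold ratio. On the log2 scale the difference was 0.84 (SE 0.18, 95% interval 0.41 to 1.26, adjusted p = 0.243). On CD the ratio was 1.70 and the log2 fold change 0.38 (SE 0.18, 95% interval -0.049 to 0.80, adjusted p = 0.452), and the values again did not overlap, although library 2 of the f/f CD group, at 1.02 FPKM, lay close to library 1 of the LKO CD group. At around 1 FPKM the gene is near the filter, which it passed in 5 of 8 libraries, 4 of them LKO.

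Mogat2, the MGAT enzyme of the intestine, had the lowest values. Mogat2 (ENSMUSG00000052396, chr7:99219084-99238619, minus strand) had FPKM values of 0.224 and 0.0783 in the f/f CD libraries, 0.528 and 0.256 in the LKO CD libraries, 0 and 0.0297 in the f/f HFD libraries and 0.107 and 0.0832 in the LKO HFD libraries. It did not reach FPKM above 1 in any library and was not tested under that filter. On each diet the LKO libraries were above the f/f libraries, and library 1 of the f/f HFD group was listed at 0. With genes above 0 in at least 1 library kept, its log2 fold change was 0.11 on HFD (adjusted p = 0.835, limma) and 0.27 on CD (adjusted p = 0.485, limma). Mogat2 and Dgat2 are neighbours on chromosome 7, 36364 bases apart, and their levels differed by more than any other pair of members.

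Gpat3, an endoplasmic reticulum GPAT best known from adipocytes, had the greatest log2 fold change of the 8 tested members on CD, on the log2(FPKM + 1) scale. Gpat3 (ENSMUSG00000029314, chr5:100845713-100899102, plus strand) had FPKM values of 4.01 and 3.24 in the f/f CD libraries, 6.08 and 8.42 in the LKO CD libraries, 4.12 and 4.57 in the f/f HFD libraries and 5.58 and 7.49 in the LKO HFD libraries. The LKO libraries were above the f/f libraries on both diets, and the lowest LKO value exceeded the highest f/f value of all 8 libraries. On CD the group means were 7.25 and 3.63 FPKM, a 2.00-fold ratio, and the log2 fold change was 0.82 (SE 0.18, 95% interval 0.39 to 1.25, adjusted p = 0.203). On HFD the ratio was 1.50 and the log2 fold change 0.49 (SE 0.18, 95% interval 0.060 to 0.92, adjusted p = 0.467).

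Gpam, the GPAT of the outer mitochondrial membrane and a known target of the lipogenic factor SREBP-1c, was slightly higher in LKO libraries. Gpam (ENSMUSG00000024978, chr19:55067268-55127238, minus strand) had FPKM values of 28.1 and 29.0 in the f/f CD libraries, 30.8 and 33.1 in the LKO CD libraries, 28.6 and 26.2 in the f/f HFD libraries and 34.2 and 29.6 in the LKO HFD libraries. All 4 LKO values exceeded all 4 f/f values, by a margin of under 1 FPKM between the nearest libraries. On the log2 scale Gpam differed by 0.24 (SE 0.10, 95% interval 0.0066 to 0.46, adjusted p = 0.504) on HFD and by 0.17 (SE 0.10, 95% interval -0.056 to 0.40, adjusted p = 0.514) on CD.

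Gpat4, the other GPAT of the endoplasmic reticulum, showed no genotype difference that the libraries could resolve. Gpat4 (ENSMUSG00000031545, chr8:23171265-23208346, minus strand) had FPKM values of 47.7 and 57.4 in the f/f CD libraries, 48.3 and 61.3 in the LKO CD libraries, 36.2 and 42.4 in the f/f HFD libraries and 35.7 and 43.3 in the LKO HFD libraries. The genotypes overlapped on both diets, and library 2 was above library 1 in all 4 groups. Its log2 fold change was 0.027 on HFD, where the 95% interval was -0.33 to 0.39, and 0.065 on CD with an interval of -0.29 to 0.42.

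Agpat2, whose loss in people and mice gives a lack of fat tissue, was higher in LKO libraries by about the same amount on both diets. Agpat2 (ENSMUSG00000026922, chr2:26593057-26604417, minus strand) had FPKM values of 76.4 and 82.1 in the f/f CD libraries, 93.2 and 100.1 in the LKO CD libraries, 77.5 and 77.0 in the f/f HFD libraries and 96.1 and 85.3 in the LKO HFD libraries. All 4 LKO values were above all 4 f/f values, and the FPKM ratio was 1.17 on HFD and 1.22 on CD. The log2 fold change was 0.24 (SE 0.092, 95% interval 0.021 to 0.46, adjusted p = 0.474) on HFD and 0.27 (SE 0.092, 95% interval 0.051 to 0.49, adjusted p = 0.328) on CD. An exon of Agpat2 overlaps Egfl7 on the opposite strand, and strand is not stated for the counting, so reads in the shared bases cannot be assigned. The same limit holds for Mogat1, which BC035947 overlaps, and for Gpat3, which 4930458D05Rik overlaps at 0.169 to 0.396 FPKM. BC035947 FPKM was 0.102 and 0.0783 in the LKO HFD libraries, 0.0284 in f/f CD library 1 and listed at 0 in the others. Egfl7 FPKM was 17.5 and 17.4 in the f/f CD libraries, 15.7 and 19.4 in the LKO CD libraries, 17.3 and 19.2 in the f/f HFD libraries and 17.8 and 14.6 in the LKO HFD libraries, and its genotypes overlapped on CD and on HFD.

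Agpat3, an AGPAT of the endoplasmic reticulum and Golgi, showed no genotype difference that the libraries could resolve. Agpat3 (ENSMUSG00000001211, chr10:78269178-78352489, minus strand) had FPKM values of 90.7 and 84.5 in the f/f CD libraries, 84.2 and 90.0 in the LKO CD libraries, 104 and 101 in the f/f HFD libraries and 99.5 and 100.4 in the LKO HFD libraries. On HFD the 2 LKO values lay just below the 2 f/f values, whereas the log2 fold change after quantile normalization was 0.0076 with a 95% interval of -0.15 to 0.16, and without normalization it was -0.035. On CD the genotypes overlapped and the log2 fold change was -0.022 with an interval of -0.18 to 0.13.

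Dgat2, the DGAT that works mainly on newly made fatty acids in liver, was lower in LKO libraries on HFD. Dgat2 (ENSMUSG00000030747, chr7:99153658-99182719, minus strand) had FPKM values of 207 and 205 in the f/f CD libraries, 205 and 214 in the LKO CD libraries, 259.9 and 261 in the f/f HFD libraries and 210.0 and 219 in the LKO HFD libraries. On HFD both LKO libraries were below both f/f libraries, which stood above all others, and on CD the genotypes overlapped. The ratio of LKO to f/f means was 0.823 on HFD and 1.02 on CD. For Dgat2 the log2 fold change was -0.30 (SE 0.061, 95% interval -0.44 to -0.15, adjusted p = 0.229) on HFD and 0.024 (SE 0.061, 95% interval -0.12 to 0.17, adjusted p = 0.901) on CD.

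Dgat1, the other DGAT, which is prominent in the intestine, was the lesser of the pair. Dgat1 (ENSMUSG00000022555, chr15:76502015-76511953, minus strand) had FPKM values of 14.5 and 14.1 in the f/f CD libraries, 12.4 and 13.5 in the LKO CD libraries, 12.6 and 12.2 in the f/f HFD libraries and 12.6 and 11.1 in the LKO HFD libraries. The genotypes overlapped on HFD, and on CD both LKO libraries were below both f/f libraries. For Dgat1 the log2 fold change was -0.036 on HFD, where the 95% interval was -0.24 to 0.17, and -0.11 on CD with an interval of -0.31 to 0.093.

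**Figure D3:**
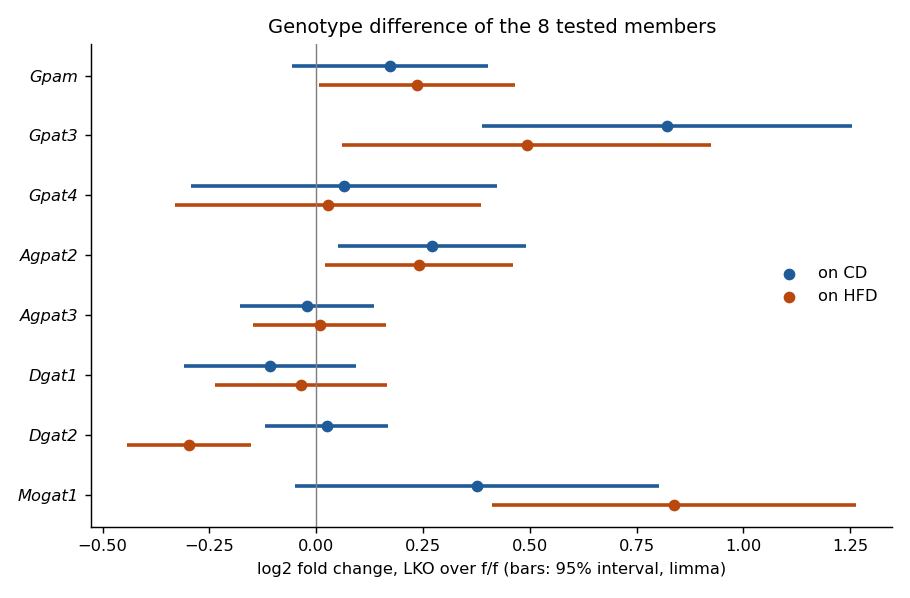
Log2 fold change of LKO over f/f libraries for the 8 tested members on CD (blue) and HFD (orange). Points are limma estimates and bars their 95% intervals on the log2(FPKM + 1) scale. The intervals of Gpat3 and Agpat2 lie above 0 on both diets, those of Mogat1 and Gpam only on HFD, and that of Dgat2 lies below 0 on HFD. These intervals are not adjusted for the number of genes.

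Averaged over the diets, 0 of 8 members had an adjusted p under 0.05 for genotype, where 0.103% of all tested genes did, and 5 of 8 had an unadjusted p under 0.05, where 13.5% of all did. Gpat3 had a log2 fold change of 0.66 (SE 0.13, 95% interval 0.35 to 0.96, adjusted p = 0.130), Mogat1 of 0.61 (SE 0.13, 95% interval 0.31 to 0.91, adjusted p = 0.138) and Agpat2 of 0.26 (SE 0.065, 95% interval 0.10 to 0.41, adjusted p = 0.175) by limma. For Gpam it was 0.20 (SE 0.068, 95% interval 0.042 to 0.37, adjusted p = 0.266), and for Dgat2 it was -0.14 (SE 0.043, 95% interval -0.24 to -0.034, adjusted p = 0.244). The interval of each of these 5 excluded 0 before adjustment for the number of genes.

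Markers of other cell types moved with the genotype label in part. The 8 adipocyte markers summed to 11.6 to 12.1 FPKM in the f/f CD libraries, 16.1 to 16.8 in the LKO CD libraries, 14.0 to 15.7 in the f/f HFD libraries and 20.3 to 20.8 in the LKO HFD libraries, mostly from Fabp4, Adrb3 and Cfd. The defining adipocyte genes were listed at low values, with Adipoq at 0 to 0.377, Plin1 at 0 to 0.0537 and Lep at 0 to 0.0227 FPKM. Of the 6 enterocyte markers, Fabp2 was at 38.1 to 100.1 FPKM, highest in the LKO HFD libraries, and Vil1, Alpi, Sis, Lct and Cdh17 stayed at or below 0.138 FPKM in every library. The 8 macrophage markers summed to 82.8 to 108 FPKM in the f/f CD libraries, 79.9 to 83.5 in the LKO CD libraries, 63.9 to 77.1 in the f/f HFD libraries and 79.6 to 111 in the LKO HFD libraries, and the 6 leukocyte markers to 2.37 to 2.87 in the f/f HFD libraries and 3.58 to 3.60 in the LKO HFD libraries. The endothelial and cholangiocyte sums overlapped between genotypes on each diet, and the 6 stellate markers summed to 57.0 to 58.8 FPKM in the f/f CD libraries and 37.0 to 49.1 in the LKO CD libraries. Among the hepatocyte markers at an unadjusted p under 0.05 by limma, Cps1 and Asgr1 were lower in LKO on HFD, at 0.721 and 0.846 of the f/f means, and on CD Tat was lower, at 0.558, and Apoa1 higher, at 1.10. The part of hepatocytes, macrophages and leukocytes in the higher Mogat1, Gpat3, Agpat2 and Gpam values of the LKO HFD libraries was not tested.

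The upstream sequences of the 4 genes that were higher in all LKO than in all f/f libraries are shown. The order of the 4 group means differed among these genes, and the share of all tested genes with such a split was not computed. RefSeq promoter sequences of the assembly GRCm38.p6 were found for 5 of 9 members, Agpat3 among them, with none for Gpat4, Dgat1, Dgat2 and Mogat2. Each run is written 5′ to 3′ on the strand of its gene and ends before the RefSeq start of its gene or the first GENCODE M21 exon of the gene that the promoter sequence reaches, whichever comes first. Capitals mark matches, on either strand, to any of 8 motifs. These were the nuclear receptor core AGGTCA, its direct repeat AGGTCANAGGTCA, the TATA box TATAAA, the CCAAT box CCAAT, the E-box CACGTG, the GC box GGGCGG, the sterol regulatory element core TCACCCCA and the HNF1 core GTTAAT, the last pair added with the sequences in view. The runs lie at chr1:78510810-78510990, plus strand, 181 bases for Mogat1, at chr5:100845979-100846129, plus strand, 151 bases for Gpat3, at chr2:26604418-26604667, minus strand, 250 bases for Agpat2 and at chr19:55127239-55127488, minus strand, 250 bases for Gpam.
Mogat1: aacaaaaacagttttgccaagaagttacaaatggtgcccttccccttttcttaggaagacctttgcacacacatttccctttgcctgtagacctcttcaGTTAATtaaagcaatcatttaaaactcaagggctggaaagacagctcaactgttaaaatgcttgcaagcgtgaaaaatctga
Gpat3: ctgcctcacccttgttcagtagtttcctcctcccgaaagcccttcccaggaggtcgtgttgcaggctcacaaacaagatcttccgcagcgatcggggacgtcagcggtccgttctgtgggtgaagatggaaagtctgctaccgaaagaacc
Agpat2: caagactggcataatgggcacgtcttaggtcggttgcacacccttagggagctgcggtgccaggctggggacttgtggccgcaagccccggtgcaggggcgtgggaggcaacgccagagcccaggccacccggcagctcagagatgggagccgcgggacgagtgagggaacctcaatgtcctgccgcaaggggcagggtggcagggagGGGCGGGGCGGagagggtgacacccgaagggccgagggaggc
Gpam: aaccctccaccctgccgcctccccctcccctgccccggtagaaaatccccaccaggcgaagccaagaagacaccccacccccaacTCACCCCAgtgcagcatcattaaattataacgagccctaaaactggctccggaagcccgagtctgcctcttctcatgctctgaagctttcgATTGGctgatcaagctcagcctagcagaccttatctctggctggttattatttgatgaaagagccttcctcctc

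The Mogat1 run held 1 match to the HNF1 core, HNF1 being a family of liver-enriched factors, and 4.81% of 32851 RefSeq promoters held one in a window of 181 bases. The Gpat3 run, which lies between exons of a longer Gpat3 transcript and within the span of the antisense gene 4930458D05Rik, held no match. The Mogat1 and Agpat2 runs likewise lie within the spans of genes on the opposite strand, BC035947 and Gm20532. The Agpat2 run held 2 GC boxes that overlap each other, where 32.7% of promoters held at least 1 in 250 bases. The Gpam run held a sterol regulatory element core 165 bases before the RefSeq start, as did 1.34% of promoters in 250 bases, and a CCAAT box on the opposite strand, as did 33.8%. Since the sterol and HNF1 motifs were added with the sequences in view, their shares do not measure how unusual these matches are. The nuclear receptor core was in none of the 4 runs, and in 8.52%, 10.3% and 14.0% of all promoters in windows of 151, 181 and 250 bases. The direct repeat, TATA box and E-box, also absent from the 4 runs, were in 0.0335%, 12.4% and 6.02% of promoters in 250 bases.

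The next comparison asked how the diet moved these genes within each genotype. In f/f libraries Dgat2 rose on HFD, to 1.27 times its CD mean in FPKM, and it was the only one of the 8 tested members with an adjusted p under 0.05. Agpat3 was higher and Gpat4 lower on HFD in both genotypes, without passing the adjusted threshold in either genotype alone. The f/f libraries had 1 of 8 members with an adjusted p under 0.05, where 1.33% of all tested genes had one, and 3 of 8 with an unadjusted p under 0.05, where 19.2% of all did. The LKO libraries had 0 of 8 with an adjusted p under 0.05, where 3.02% of all tested genes did, and 2 of 8 with an unadjusted p under 0.05, where 21.3% of all did. The 2 in LKO became 1 without LKO CD library 2 or LKO HFD library 1. The diets did not overlap in FPKM for 6 of 8 tested members in f/f, beside 49.9% of all tested genes, and for 2 of 8 in LKO, beside 53.2%. The median log2 fold change of the members was 0.0049 in f/f and 0.021 in LKO, where that of all tested genes was 0.011 and 0.0058.

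For Dgat2 the f/f means were 206 FPKM on CD and 260.5 on HFD, with under 2 FPKM between the libraries of either group, and the log2 fold change was 0.44 (SE 0.061, 95% interval 0.30 to 0.58, adjusted p = 0.0373) by limma. The LKO means were 209 on CD and 214 on HFD, with overlapping libraries, and the log2 fold change was 0.12 (SE 0.061, 95% interval -0.026 to 0.26, adjusted p = 0.320). The call in f/f did not hold when any 1 of the 8 libraries was left out, with adjusted p from 0.0595 to 0.165, while the log2 fold change stayed between 0.41 and 0.46. The diet comparison in f/f and the genotype comparison on HFD share the f/f HFD libraries, so the rise of Dgat2 and its lower LKO values are not independent observations. Without quantile normalization the log2 fold change was 0.34 and the adjusted p 0.0567.

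Agpat3 means were 87.6 FPKM on CD and 102 on HFD in f/f, and 87.1 and 99.9 in LKO. All 4 HFD libraries were above all 4 CD libraries, and the log2 fold change was 0.26 (SE 0.066, 95% interval 0.10 to 0.41, adjusted p = 0.113) in f/f and 0.29 (SE 0.066, 95% interval 0.13 to 0.44, adjusted p = 0.0706) in LKO. Gpat4 went the other way, with means of 52.5 FPKM on CD and 39.3 on HFD in f/f, and 54.8 and 39.5 in LKO. All 4 HFD libraries were below all 4 CD libraries, and the log2 fold change was -0.37 (SE 0.15, 95% interval -0.73 to -0.017, adjusted p = 0.244) in f/f and -0.41 (SE 0.15, 95% interval -0.77 to -0.054, adjusted p = 0.182) in LKO. How many of all tested genes split by diet over all 8 libraries was not computed.

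The other tested members showed no diet difference with an unadjusted p under 0.05. Mogat1 was lower on HFD in both f/f libraries, with means of 0.832 and 0.517 FPKM and a log2 fold change of -0.28 with a 95% interval of -0.70 to 0.15, and its LKO libraries overlapped between diets, with 0.18 and an interval of -0.24 to 0.61. Dgat1 was lower on HFD in both f/f libraries, with a log2 fold change of -0.16 and an interval of -0.36 to 0.042. Gpat3 had a log2 fold change of 0.23 in f/f and -0.10 in LKO, with intervals of -0.20 to 0.66 and -0.53 to 0.34. Gpam and Agpat2 had log2 fold changes between -0.022 and 0.041 over both genotypes. Mogat2, untested under the filter, was lower on HFD in both genotypes. With genes above 0 in at least 1 library kept, its log2 fold change was -0.18 in f/f (adjusted p = 0.520, limma) and -0.34 in LKO (unadjusted p = 0.0155, adjusted p = 0.204, limma).

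**Figure D4:**
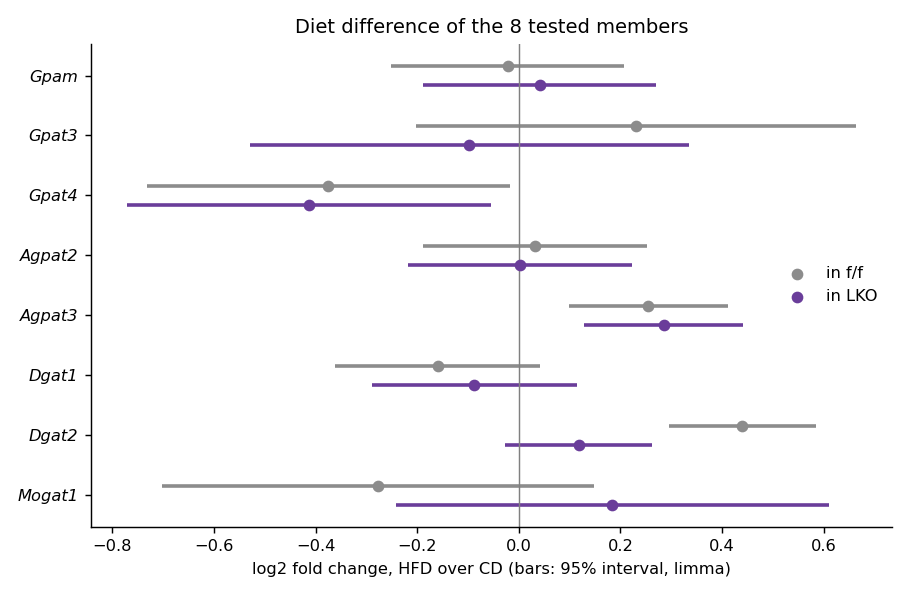
Log2 fold change of HFD over CD libraries for the 8 tested members in f/f (grey) and LKO (purple). Points are limma estimates and bars their 95% intervals, not adjusted for the number of genes. Agpat3 lies above 0 and Gpat4 below 0 in both genotypes, and Dgat2 lies above 0 in f/f, at 0.44, with an LKO interval that crosses 0.

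Averaged over the genotypes, Dgat2 and Agpat3 rose on HFD. For Dgat2 the FPKM ratio of HFD to CD was 1.27 in f/f and 1.02 in LKO, where the diets overlapped. For Agpat3 the ratio was 1.17 in f/f and 1.15 in LKO. The averaged log2 fold change was 0.28 (SE 0.043, 95% interval 0.18 to 0.38, adjusted p = 0.0137) for Dgat2 and 0.27 (SE 0.047, 95% interval 0.16 to 0.38, adjusted p = 0.0188) for Agpat3 by limma, and that of Gpat4 was -0.39 (SE 0.11, 95% interval -0.65 to -0.14, adjusted p = 0.0657). These 2 of 8 members had an adjusted p under 0.05, where 9.89% of all tested genes had one, and 3 of 8 had an unadjusted p under 0.05, where 27.9% of all did. The Agpat3 call was lost without f/f CD library 2, f/f HFD library 1, LKO HFD library 1 or LKO HFD library 2, with adjusted p up to 0.0681, and the Dgat2 call without LKO HFD library 1 or LKO HFD library 2, with adjusted p of 0.0506 and 0.0557. Gpat4 had an adjusted p under 0.05 when only genes above 1 FPKM in all 8 libraries were tested, at 0.0383. Markers of several cell types moved with the diet. The 6 stellate markers summed to 68.4 to 92.0 FPKM in the f/f HFD libraries and 71.7 to 92.1 in the LKO HFD libraries, above the CD libraries of both genotypes, and the adipocyte sums and Fabp2 were likewise higher on HFD within each genotype. Of the adipocyte markers, Adrb3 went the other way in LKO, with means of 7.44 FPKM on CD and 5.13 on HFD. The macrophage sum was lower on HFD in f/f without overlap and overlapped between diets in LKO. Averaged over the genotypes, the markers with an adjusted p under 0.05 by limma were the stellate Reln and Dcn, the endothelial Lyve1 at 1.99 times its CD mean, Fabp4 and Fabp2, all of which rose, and the hepatocyte genes Tat, which fell to 0.389 of its CD mean, and Ttr, which was higher after quantile normalization but in FPKM stood at 0.991 of its CD mean. Their part in the diet differences was not tested.

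The difference of differences asked whether the genotype effect depended on the diet. By limma 0 of 8 members had an adjusted p under 0.05 for it, where 0.0344% of all tested genes did, and 1 of 8, Dgat2, had an unadjusted p under 0.05, where 8.35% of all did, with 2 of 8 when LKO CD library 2 was left out. Dgat2 had an interaction of -0.32 (SE 0.086, 95% interval -0.53 to -0.12, adjusted p = 0.558), and Mogat1 had one of 0.46 (SE 0.25, 95% interval -0.14 to 1.06, adjusted p = 0.662). The genotype effect on Gpat3 was smaller on HFD than on CD by point estimate, with an interaction of -0.33 and an interval of -0.94 to 0.28. A difference between the diets in the genotype effect was therefore not shown for any member at an adjusted p of 0.05.

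The other genes of the pathway were 41 genes in 6 lists, compiled by hand for other acyltransferases, glycerol 3-phosphate supply, phosphatidate phosphatases, the phospholipid branch, acylglycerol breakdown and lipid droplets with export, and 32 of them were tested. Between genotypes, 1 of 32 passed the adjusted threshold on each diet, beside 0.043% called among all genes for HFD and 0.0172% for CD, and it was Lpin1, the phosphatidate phosphatase that makes diacylglycerol between the AGPAT and DGAT steps. Lpin1 FPKM was 68.5 and 77.3 in the f/f CD libraries, 17.5 and 18.8 in the LKO CD libraries, 68.8 and 77.4 in the f/f HFD libraries and 27.6 and 34.2 in the LKO HFD libraries. The LKO libraries were far below the f/f libraries on both diets, and Lpin1 fell in LKO with a log2 fold change of -1.91 (SE 0.12, 95% interval -2.18 to -1.63, adjusted p = 0.00631) on CD and -1.22 (SE 0.12, 95% interval -1.50 to -0.95, adjusted p = 0.0457) on HFD by limma. The other settings were applied to the pathway genes after their values were seen. The call on CD was lost under 1 of 16, the 4 libraries of the comparison alone, with adjusted p = 0.184. The call on HFD was lost under 10 of 16, with adjusted p up to 0.428, among them the 4 libraries alone and the omission of any 1 library other than LKO HFD library 2. At an unadjusted p under 0.05, 7 of 32 were higher and 2 lower in LKO on HFD, beside 9.58% of all tested genes, and on CD 6 were higher and 3 lower, beside 12.3%, with medians over the 32 of 0.14 and 0.10. The 5 tested other acyltransferases had medians of -0.030 on HFD and -0.11 on CD. On each diet 3 of these 5 had a log2 fold change below 0 and 2 above 0. Among them only Soat2 on CD had an unadjusted p under 0.05 by limma. It was higher in LKO, at 1.29 times the f/f mean on CD and 1.11 times on HFD.

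The lipid droplet genes Fitm1 and Plin2 and the phosphatase Lpin2 followed Lpin1 in size of difference without passing the adjusted threshold. Fitm1, which helps to package triglyceride into droplets, had FPKM values of 23.8 and 17.8 in the f/f CD libraries, 39.5 and 34.3 in the LKO CD libraries, 18.7 and 24.4 in the f/f HFD libraries and 36.2 and 43.7 in the LKO HFD libraries. All 4 LKO libraries were above all 4 f/f libraries, and the log2 fold change was 0.88 (SE 0.18, 95% interval 0.46 to 1.30, adjusted p = 0.228) on HFD and 0.82 (SE 0.18, 95% interval 0.40 to 1.24, adjusted p = 0.202) on CD. Plin2, the main droplet coat protein of hepatocytes, was higher in LKO, and its log2 fold change on HFD was 0.69 (SE 0.20, 95% interval 0.22 to 1.16, adjusted p = 0.339). Lpin2 was lower in LKO on CD, with a log2 fold change of -0.86 (SE 0.22, 95% interval -1.37 to -0.35, adjusted p = 0.232), and stood at -0.025 on HFD.

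**Figure D5:**
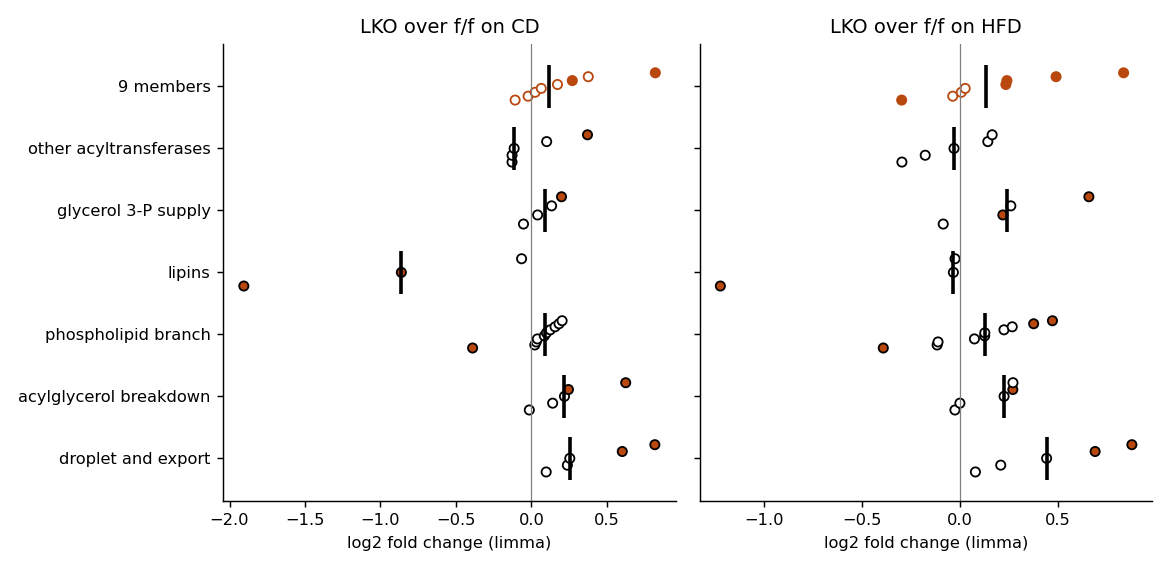
Log2 fold change of LKO over f/f libraries on CD (left) and HFD (right) for the tested members (orange outline) and the tested genes of 6 pathway lists (black outline). Each circle is a gene, filled where the unadjusted limma p was under 0.05, and short vertical lines are list medians. Lpin1 is the leftmost point in both panels, at -1.91 on CD and -1.22 on HFD.

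Between diets, 0 of the 32 pathway genes passed the adjusted threshold in f/f, beside 1.33% of all tested genes, with 7 higher and 5 lower on HFD at an unadjusted p under 0.05 by limma, beside 19.2%. In LKO 4 of 32 rose on HFD and 0 fell, beside 3.02% of all tested genes called in either direction. These were Gpd1, which makes glycerol 3-phosphate from a glycolytic intermediate, with a log2 fold change of 0.66 (SE 0.082, 95% interval 0.47 to 0.86, adjusted p = 0.0194), the glycerol channel Aqp9 with 0.51 (SE 0.072, 95% interval 0.33 to 0.68, adjusted p = 0.0251), Lpin1 with 0.76 (SE 0.12, 95% interval 0.49 to 1.04, adjusted p = 0.0301) and the cholinephosphotransferase Chpt1 with 0.49 (SE 0.063, 95% interval 0.34 to 0.64, adjusted p = 0.0194). All 4 calls were lost with the 4 LKO libraries alone, where limma called 0 genes and 2330 had an unadjusted p under 0.05, and when any 1 of the LKO libraries was left out, with adjusted p from 0.0617 to 0.131, while each kept its direction. The Lpin1 call was also lost without any 1 of the f/f libraries and the Aqp9 call without f/f HFD library 1. Gpd1 FPKM was 98.5 and 109 in the f/f CD libraries, 114 and 124 in the LKO CD libraries, 116 and 116 in the f/f HFD libraries and 176 and 181 in the LKO HFD libraries. The LKO HFD libraries were the highest, and the other 3 groups lay within a band of 98.5 to 124 FPKM. In LKO the glycerol kinase Gk had a log2 fold change of 0.71 (SE 0.14, 95% interval 0.37 to 1.05, adjusted p = 0.0547). In f/f the differences of greatest size among those with an unadjusted p under 0.05 were Lpin2 with -0.82 (SE 0.22, 95% interval -1.33 to -0.31, adjusted p = 0.118), Plin2 with -0.57 (SE 0.20, 95% interval -1.03 to -0.10, adjusted p = 0.192) and the choline kinase Chka with 0.52 (SE 0.21, 95% interval 0.030 to 1.02, adjusted p = 0.240). Plin2 and Chka moved the same way in LKO, at 0.637 and 1.52 times their CD means, also with an unadjusted p under 0.05 by limma. Lpin2 in LKO stood at 0.925 of its CD mean, with overlapping libraries. Averaged over the genotypes, where 9.89% of all tested genes were called, 6 of 32 rose on HFD, namely Gpd1, Gk, Aqp9, Lpin1, Chpt1 and Cept1, and 1 fell, the monoacylglycerol lipase Abhd6, with a log2 fold change of -0.40 (SE 0.091, 95% interval -0.62 to -0.18, adjusted p = 0.0409). Of these 7, Gpd1, Aqp9 and Chpt1 passed under all 15 other settings, whereas Gk did under 11, Lpin1 under 7 and Cept1 and Abhd6 under 6, with adjusted p up to 0.130.

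The members with the widest range of group means on the log2 scale were Mogat1, at 0.84, and Gpat3, at 0.82. Over the 8 libraries the genes whose values followed Mogat1 most closely were Sik2 with a Pearson r of 0.989, Cd59b with 0.988 and Enc1 with 0.963, and 26 genes had r of at least 0.9. Those nearest to Gpat3 were Mbl1 with 0.971, Llgl2 with 0.961 and ENSMUSG00000074661 with 0.959, and 31 genes had r of at least 0.9. These values describe 8 libraries that share their groups, normalization and sequencing, and no test was attached to them.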

How the data were processed

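Total RNA was extracted from pooled livers and poly(A) RNA libraries were prepared with the Illumina TruSeq kit. The authors trimmed the reads with cutadapt 1.0, aligned them to GRCm38 with TopHat2 2.0.7 and ran Cufflinks. The deposited table, on a linear scale, gives FPKM in 8 libraries for 38283 genes. Counts were not used, so tests built on counts were not run.

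Genes were matched by Ensembl identifier to GENCODE M21 on GRCm38, which gave a symbol for 36341. The filter required more than 1 FPKM in 1 or more libraries, and log2(FPKM + 1) values were quantile normalized. All 8 libraries were fitted with limma 3.58.1 in R 4.3.3 (4 group means, mean-variance trend, Benjamini-Hochberg adjustment within a comparison). The permutation procedure of the study was not rebuilt. On simulated data of 11634 genes for LKO against f/f on HFD, the fit recovered 96% of genes given a log2 change of 2 and 71% of those given 1. The simulation changed many more genes than the 5 called for this comparison in the data. The adjustment depends on that number, so these shares are not the power of the tests above. Libraries pool different mice, so p-values measure the spread between pools.

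The members, pathway lists and markers were chosen with earlier results of these data known. Named genes were all members, pathway genes with an adjusted p under 0.05 or, in each comparison of 2 groups, the 3 of greatest absolute log2 fold change with an unadjusted p under 0.05, and the 3 genes most correlated with the 2 most variable members. Alternatives were no normalization, median centring, a pseudocount of 0.1, 2 other filters, no trend, a replicate block, the libraries of a comparison alone and each library left out. Figures were drawn with matplotlib 3.10.9.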

Additional observations from a re-analysis of the deposited data

How the results depend on the processing

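With 2 libraries per group, calls rested on a spread estimated from few differences. Of the counts of members past a threshold, 96 were within 1.5 times the reported count under the other settings and 10 were not. Under the other settings 395 member fold changes kept direction and side of the threshold, 14 turned direction, 5 lost a call and 3 gained one, and with each library left out 384 kept both, 50 turned and 14 lost a call. Most of these fold changes had no call to lose, so the totals do not measure how stable the calls were. The only member calls were Dgat2 for diet in f/f, and Dgat2 and Agpat3 for diet averaged over the genotypes. The 1 call for HFD in f/f, Dgat2, became 0 without normalization, with median centring, without the limma trend, with the replicate block and with the 4 libraries of the comparison alone, with adjusted p from 0.0504 to 0.166, and the cause was not tested. The 5 members with an unadjusted p under 0.05 for genotype on HFD became 3 without the trend, with the replicate block and with the 4 libraries alone. In LKO the 2 members with an unadjusted p under 0.05 for diet became 4 when all genes above 0 FPKM were tested, which admits Mogat2. With a replicate block the count of members with an adjusted p under 0.05 for diet in LKO became 1, Gpat4 with adjusted p = 0.0451, and averaged over genotypes Gpat4 had adjusted p = 0.0126 by limma. Across genes, same-numbered libraries of different groups deviated together with a correlation of -0.0037 to 0.15, and nothing in the labels ties the numbers to shared animals, so the numbers were not taken to pair the libraries.

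Directions that turned belonged to differences whose 95% interval included 0. Without normalization and with median centring, the log2 fold change of Agpat3 was -0.035 and -0.027 for genotype on HFD and -0.028 and -0.026 for the interaction. Those of Agpat2 were -0.036 and -0.0089 for diet in f/f, -0.093 and -0.065 in LKO and -0.064 and -0.037 on average, and those of Gpam were -0.032 and -0.0045 on average, with -0.0064 in LKO without normalization. With FPKM above 1 in all 8 libraries, Agpat2 was at -0.00012 for diet in LKO.

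When 1 library at a time was left out, the members with an adjusted p under 0.05 for diet numbered 0 in f/f and 0 to 2 on average. Those with an unadjusted p under 0.05 numbered 2 to 4 for genotype on HFD, 1 to 3 on CD, 1 to 2 for the interaction, 2 to 3 for diet in f/f, 1 to 2 in LKO, 4 to 5 for genotype on average and 3 to 4 for diet on average. The log2 fold changes that turned ranged, for genotype on HFD, over -0.024 to 0.038 for Agpat3, -0.13 to 0.053 for Dgat1 and -0.084 to 0.14 for Gpat4. For genotype on CD they ranged over -0.063 to 0.020 for Agpat3 and -0.083 to 0.21 for Gpat4, and on average over -0.028 to 0.014 and -0.028 to 0.12. For the interaction they ranged over -0.15 to 0.085 for Agpat2, -0.012 to 0.071 for Agpat3, -0.017 to 0.16 for Dgat1, -0.058 to 0.18 for Gpam and -0.18 to 0.11 for Gpat4. For diet in f/f they ranged over -0.020 to 0.086 for Agpat2 and -0.085 to 0.040 for Gpam, and in LKO over -0.12 to 0.12 for Agpat2, -0.18 to 0.0019 for Dgat1, -0.080 to 0.16 for Gpam and -0.31 to 0.11 for Gpat3. For diet on average they ranged over -0.042 to 0.075 for Agpat2, -0.051 to 0.069 for Gpam, -0.038 to 0.17 for Gpat3 and -0.13 to 0.035 for Mogat1.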
